A study of Danio rerio with 3 samples.

Results

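The genes described here are those of the Notch pathway and the proneural transcription factors in zebrafish embryos in which slc2a10, the gene of the glucose transporter GLUT10, was knocked down. They were taken by gene symbol alone, as probes whose annotated symbol begins, among others, with notch, her or hes and a digit, hey, jag, neurog, neurod, atoh, dll4 or mib, or is dla, dlb, dlc or dld, leaving out neurod1 and atoh7. The rule found 82 probes of 43603, belonging to 48 of 15548 named genes, and 44 of the 48 are Notch pathway or proneural genes. The other 4, jagn1a, jagn1b, mibp and mibp2, share only the first letters of their symbols with jagged and mind bomb genes and are described apart.

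Embryos of the wild-type Ab strain received either 7.5 ng of a morpholino (MO, a synthetic antisense oligomer) against slc2a10 or 5 ng of a control MO, and whole embryos were collected 48 hours after fertilization. The 3 knockdown replicates, each of 10 to 15 embryos kept for a recognizable class of phenotype, were each hybridised on a two-colour Agilent array beside the same pool of control RNA. Knockdown and control embryos therefore differed also in the MO, its dose and the sorting by phenotype, and the control pool is 1 sample whose own spread was not measured. The slc2a10 MO covers the donor splice site of exon 2. Both oligomers, which are among the differences between the groups, are shown 5′ to 3′ as the labels give them. Capitals mark ACTTAC, which a search found in the slc2a10 MO and which is the reverse complement of the donor letters GTAAGT.
slc2a10 MO: caaataaagtccACTTACttggt
control MO: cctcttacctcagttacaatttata

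In Notch signalling, Delta and Jagged ligands on one cell bind Notch receptors on its neighbour. The receptor is then cut, and its intracellular part joins the DNA-binding protein RBPJ to switch on some of the her, hes and hey genes, which encode helix-loop-helix repressors. These repressors keep proneural genes low, so that some cells of the neural tube, retina and inner ear remain progenitors while others, high in proneural factors, make Delta and leave the cell cycle as neurons or hair cells. The neurod genes encode factors of the same helix-loop-helix family that act later, in cells already committed to a neuronal fate.

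The values are log2 ratios between the 2 samples on an array, and the deposited tables do not say which sample is the numerator. Replicate 2, the array with the dyes swapped, was turned in sign because over all probes it correlated at -0.65 and -0.69 with replicates 1 and 3, which correlated with each other at 0.48. Signs below are relative to slc2a10, whose own probe gave 0.50, 0.42 and 0.47 on replicates 1, 2 and 3 (mean 0.46 ± 0.04 (SD, n = 3), limma adjusted p = 0.0008). A positive value is called the slc2a10 side and a negative value the opposite side. Transcripts on the slc2a10 side were higher in the control pool if Cy5 is the numerator, and higher in knockdown embryos if Cy3 is. The sample titles name slc2a10 MO before the control pool for replicates 1 and 3, and after it for replicate 2. The sample named first was thus the one in Cy3 each time, but the titles do not say that it is the numerator. If the submitters had already turned the ratios by sample, the pattern would follow the dyes instead of the samples, and this cannot be told apart from the deposited values. Being ratios, the values carry no level of any transcript, so neither the tissue of origin nor absolute expression could be checked. In whole embryos, fewer cells of a type and less RNA per cell also cannot be told apart. Every value below is a log2 ratio unless a fold is named, and a gene is called where its limma adjusted p over all named genes was under 0.05.

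Called on the opposite side were 4 of 6 proneural genes, 3 of 5 delta ligands, 6 of 16 her and hes genes, 1 of 4 receptors and 1 of 4 jagged ligands. Called on the slc2a10 side were 3 of 4 neurod genes and the delta ligand gene dld. Of the 44 Notch and proneural genes, 15 were called on the opposite side (34.1%) and 4 on the slc2a10 side (9.1%), while 25 were not called. Over all named genes 8.16% were called on the opposite side, 11.1% on the slc2a10 side and 19.3% on either. The share on the opposite side was therefore above the background, and the share on the slc2a10 side was near it. The median of the 44 genes was -0.08, beside 0.0066 over all named genes. With the prefix matches, 16 and 5 of 48 were called, and each of the 21 kept its sign on every array. The calls were made from these same arrays after replicate 2 was turned, so this agreement is not separate support for them. Most differences were small, since 4 of the 21 called genes reached 1.5-fold. These are 4 of all 48 members, beside 297 of all 15548 named genes (1.91%) that were called and reached that size. At an adjusted p under 0.01, 14 of the 48 were called, beside 9.88% of all named genes.

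**Figure D1:**
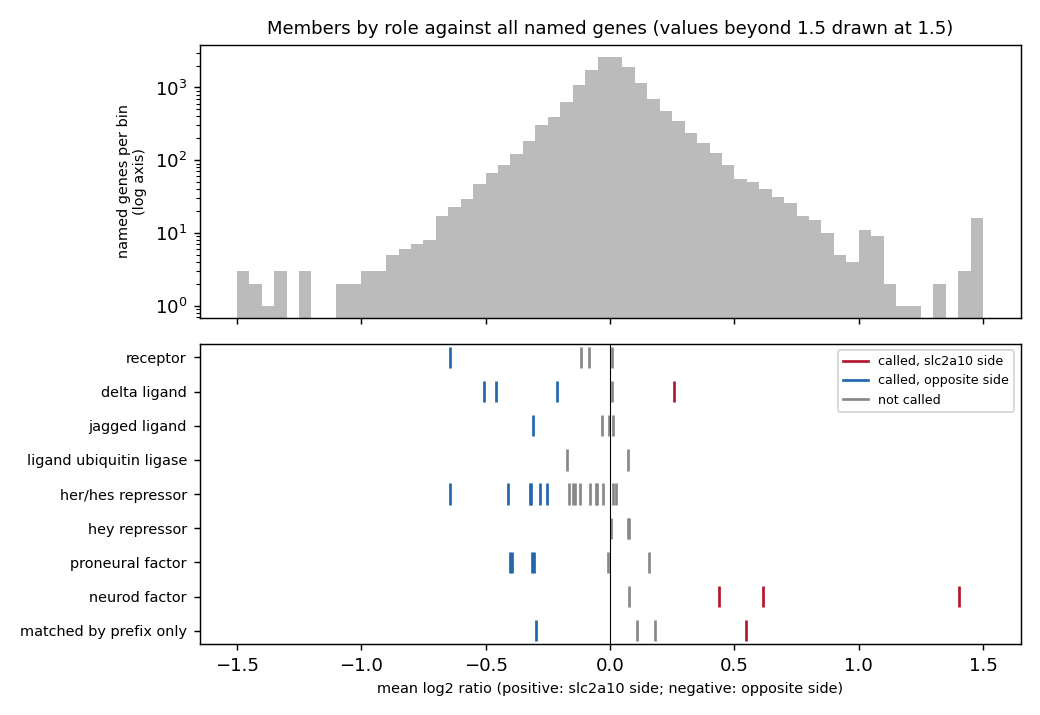
Upper panel: number of named genes per bin of 0.05 of the mean log2 ratio, on a log axis. Lower panel: each member as a tick at its mean log2 ratio over 3 arrays, in rows by role and coloured by its limma call. The called proneural genes and 3 of 5 delta ligands lie left of 0, and the 4 neurod genes lie right of it, with neurod6b at 1.40.

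Of the 4 Notch receptors, notch1a alone was called. It had -0.70, -0.48 and -0.74 on replicates 1, 2 and 3, and no array came near 0. Its mean of -0.64 ± 0.14 is a 1.56-fold difference (adjusted p = 0.000513), measured by 1 probe. It ranked 69 of 15548 named genes from the far end of that side. Its paralog notch1b, measured by 3 probes, had 0.05, 0.04 and -0.06 (mean 0.0088 ± 0.06, adjusted p = 0.94). Notch1a minus notch1b was -0.75, -0.52 and -0.68 on the 3 arrays. Notch2 (-0.08 ± 0.03, adjusted p = 0.31) and notch3 (-0.12 ± 0.06, adjusted p = 0.17) were below 0 on every array without passing.

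Among the delta ligands, dla, which marks cells entering neuronal differentiation, had -0.56, -0.49 and -0.47. All of its 3 probes lay between -0.54 and -0.48 and were called singly, and the mean was -0.51 ± 0.05 (adjusted p = 0.000562). Dlb, likewise a gene of nascent neurons, had -0.39, -0.50 and -0.49 (mean -0.46 ± 0.06, adjusted p = 0.000978), with both probes called. For both genes the mean was several times the SD of the arrays. Dlc, which also acts in somite formation, had -0.20, -0.17 and -0.27 (mean -0.21 ± 0.05, adjusted p = 0.024). Of its 3 probes 1 was called singly, at -0.29, and the others, at -0.17 and -0.18, were not. The call of dlc was lost without replicate 2 (-0.23, adjusted p = 0.11), without replicate 3 (-0.19, adjusted p = 0.10) and with a dye term (-0.20, adjusted p = 0.095).

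Dld, which is expressed with dla in the neural plate, was on the other side from it. It had 0.28, 0.17 and 0.33 (mean 0.26 ± 0.08, adjusted p = 0.014), and both of its probes, at 0.22 and 0.30, were called. Dla minus dld was -0.84, -0.66 and -0.80 on the 3 arrays. Its constant sign follows from the opposite signs of the 2 genes and is not a further result. The call of dld was lost without replicate 3 (0.22, adjusted p = 0.059) and with a dye term (0.24, adjusted p = 0.0505). Dll4, the ligand of arterial endothelium, was near 0 on each array, with -0.02, 0.08 and -0.05 (mean 0.0069 ± 0.07).

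Of the 4 jagged ligands, jag1a was called, with -0.24, -0.27 and -0.43 (mean -0.31 ± 0.10, adjusted p = 0.0078). Its 3 probes disagreed in size, 2 of them at -0.47 and -0.39 and called singly, and the other at -0.07. The other 3, jag1b, jag2a and jag2b, had means between -0.03 and 0.014. Mind bomb ubiquitin ligases act in the cell that sends the signal, where they let ligands be taken up. Mib1 had -0.17 ± 0.13 (adjusted p = 0.096), with 1 of its 2 probes called at -0.28, and mib2 had 0.07 ± 0.04 (adjusted p = 0.39).

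**Figure D2:**
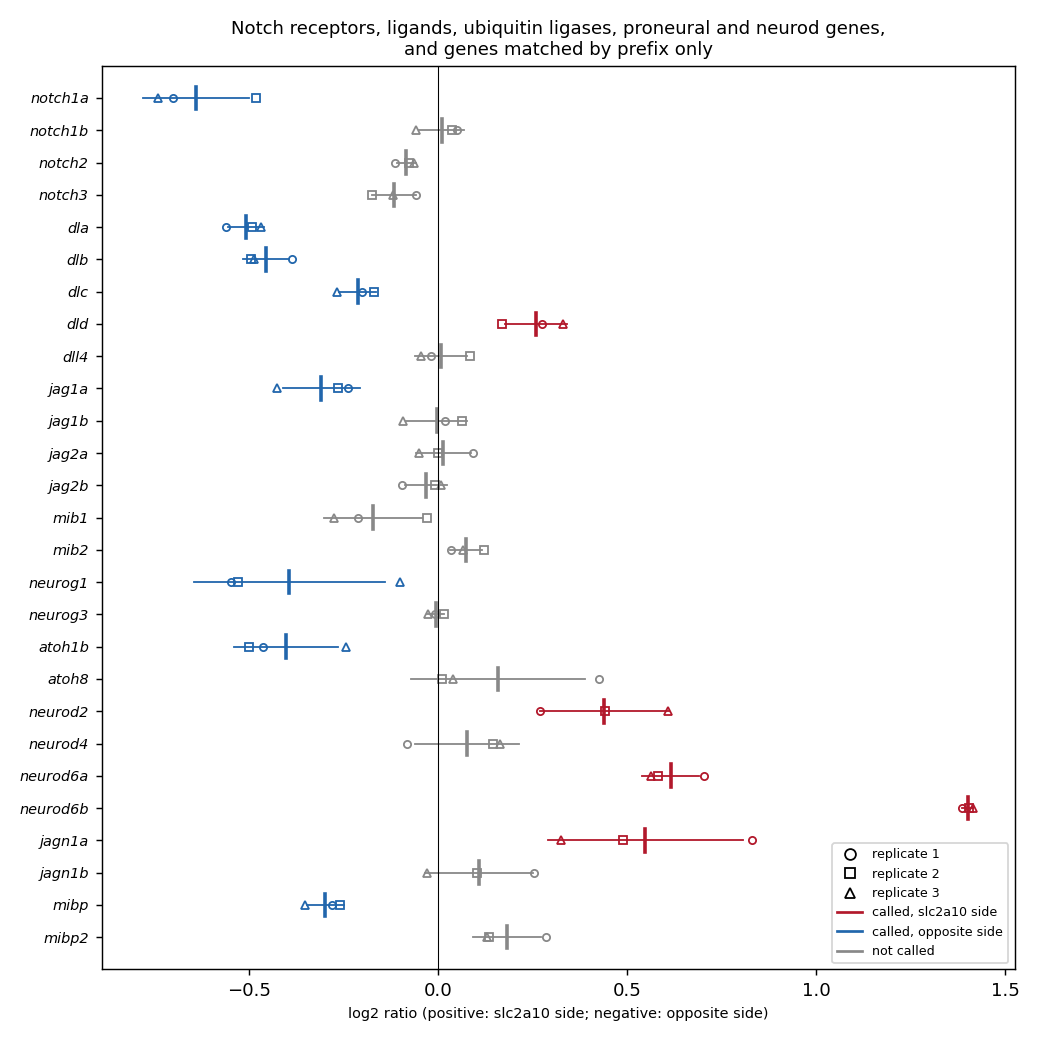
Log2 ratio (horizontal axis) of receptor, ligand, ubiquitin ligase, proneural and neurod genes and of the 4 prefix matches. Open symbols are the 3 arrays, the thick tick is the mean, the thin line is 1 SD to each side, and colour is the limma call. Notch1a and dla lie between -0.74 and -0.47 on all arrays, while neurod6b lies between 1.39 and 1.41.

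Most of the 6 genes grouped here as proneural start neurogenesis or hair cell formation, and neurog3 and atoh8 are counted with them by symbol. Of these 6, 4 were called, all on the opposite side, where 8.16% of all named genes were called. Without replicate 2 the count was 1 of 6, which was atoh1b. Neurog1, needed for cranial sensory ganglia and spinal sensory neurons, had -0.55, -0.53 and -0.10 (mean -0.39 ± 0.25, adjusted p = 0.017). Both neurog1 probes were called and had the same ordering of arrays. Atoh1b, an inner ear and hindbrain gene, had -0.46, -0.50 and -0.24 (mean -0.40 ± 0.14, adjusted p = 0.0039), with both probes called. Replicate 3 had the smallest size in both neurog1 and atoh1b, and no array of either crossed 0.

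The value of neurog1 without replicate 2 was -0.33 (adjusted p = 0.074). Neurog3, which directs endocrine pancreas in mammals, was at -0.0086, 0.016 and -0.03 on the arrays. Atoh8 had 0.42, 0.01 and 0.04 (mean 0.16 ± 0.23, adjusted p = 0.25), so its mean rests on replicate 1.

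The neurod genes lay the other way. Neurod6b, whose mouse counterpart Neurod6 marks postmitotic neurons of the forebrain, had 1.39, 1.40 and 1.41. The arrays were nearly identical, the mean of 1.40 ± 0.01 is a 2.64-fold difference (adjusted p = 7.43e-06), and the gene ranked 19 of 15548 named genes from the far end of the slc2a10 side. Neurod6a had 0.70, 0.58 and 0.56 (mean 0.62 ± 0.08, 1.53-fold, adjusted p = 0.000317). The difference between the paralogs was 0.68, 0.82 and 0.85, larger than the SD of either. Neurod2, a gene of differentiating brain neurons, had 0.27, 0.44 and 0.61 (mean 0.44 ± 0.17, adjusted p = 0.004). Neurod4, which acts earlier than these in retina and brain, had -0.08, 0.15 and 0.16 and was not called (adjusted p = 0.49). Neurod2, neurod6a and neurod6b were measured by 1 probe each.

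Of the 16 her and hes genes, 6 were called on the opposite side and 0 on the slc2a10 side by limma (9 of the 16 had an unadjusted p under 0.05), beside 8.16% of all named genes called on that side and 31.4% with an unadjusted p under 0.05. Their median was -0.14, and 14 of the 16 had a mean below 0. Her12 and her15.2, related to mammalian Hes5 and active in neural progenitors, were both called. Her12 had -0.96, -0.83 and -0.13, the widest spread of any member (mean -0.64 ± 0.45, 1.56-fold, adjusted p = 0.014). Replicate 3 stood apart from the other two, as it did for neurog1. The call of her12 was lost with robust empirical Bayes, which allows genes of unusual spread (-0.64, adjusted p = 0.051).

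Her15.2 had -0.18, -0.31 and -0.27 (mean -0.25 ± 0.07, adjusted p = 0.014), a call lost without replicate 2 (-0.23, adjusted p = 0.14). Her2 had -0.19, -0.34 and -0.44 (mean -0.32 ± 0.13, adjusted p = 0.0086). Her4.5, a further gene of this type, had -0.22, -0.0035 and -0.02 and was not called (adjusted p = 0.43). The her4 and her15 genes have near copies beside them in the genome, and the probe sequences were not used here, so these probes may read more than 1 copy.

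Hes6, which in mouse promotes neuronal differentiation by opposing Hes1 and in zebrafish also takes part in the segmentation clock, had -0.34, -0.54 and -0.36 (mean -0.41 ± 0.11, adjusted p = 0.0026). Her13 had -0.41, -0.28 and -0.26 (mean -0.32 ± 0.09, adjusted p = 0.0061), with 1 of 2 probes called. The called her13 probe had -0.16, -0.36 and -0.59 (SD 0.21). The other had -0.66, -0.19 and 0.08 (SD 0.38, limma adjusted p = 0.21). The probes ordered the arrays in opposite ways, so their average spread less than either probe. Hes2.2 had -0.31, -0.19 and -0.35 (mean -0.28 ± 0.08, adjusted p = 0.010). Taken as the average of its probes, none of these 3 genes crossed 0 on any array.

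The clock genes of somite formation, her1 and her7, were near 0, with means of -0.05 ± 0.01 (adjusted p = 0.55) and -0.06 ± 0.17 (adjusted p = 0.65). Whether these 2 genes were expressed at 48 hours could not be checked from ratios, so the values do not show an unaffected clock. Her5 and her11, which mark the midbrain-hindbrain boundary, had -0.03 ± 0.07 and -0.12 ± 0.14 (adjusted p = 0.79 and 0.24). Her6, related to mammalian Hes1, had 0.01 ± 0.06 (adjusted p = 0.91), and its 2 probes differed in sign. Her3 (-0.15 ± 0.09), her8a (-0.16 ± 0.07) and her9 (-0.14 ± 0.07) were below 0 on every array without passing, at adjusted p of 0.11, 0.076 and 0.12. Her8a passed without replicate 1 (-0.20, adjusted p = 0.043), and its 2 probes differed, at -0.33 (called) and -0.0007. Her8.2 had 0.02 ± 0.11 (adjusted p = 0.85).

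The 3 hey genes, which act in arteries and heart, were not called by limma, and 0 had an unadjusted p under 0.05. Hey1 had 0.0041 ± 0.03. Hey2, known in zebrafish as gridlock and required for the aorta, had -0.04, 0.04 and 0.22, and heyl had -0.03, -0.01 and 0.27. In both, replicate 3 was the highest array, and the signs were mixed.

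**Figure D3:**
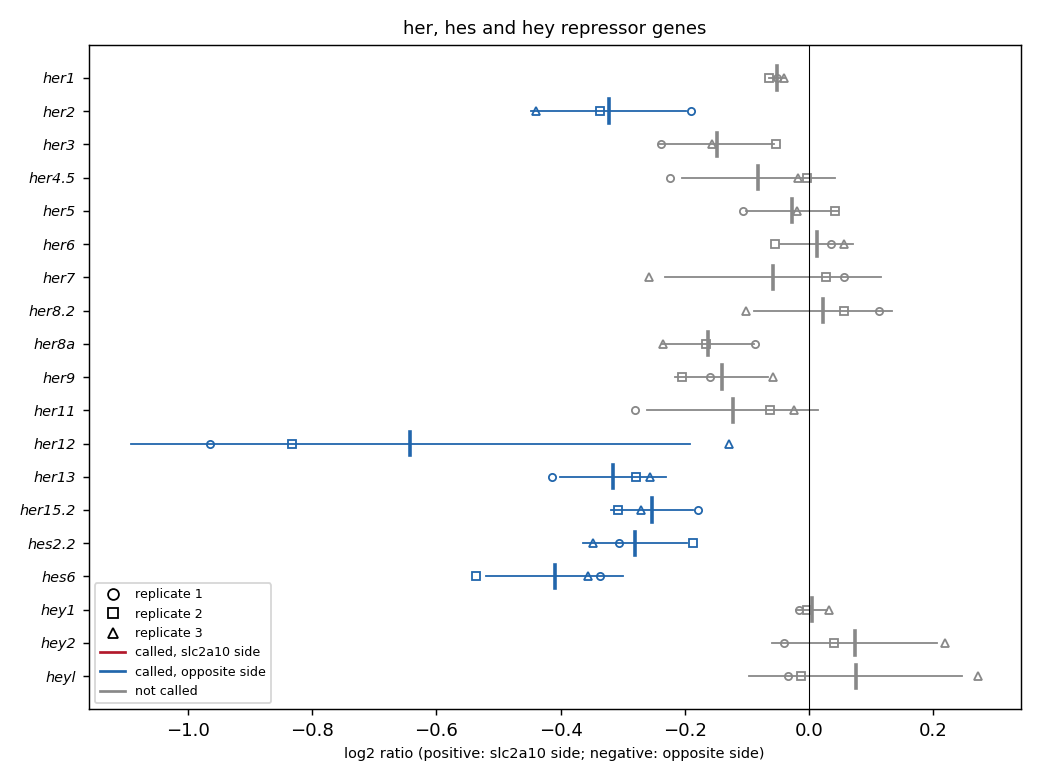
Log2 ratio (horizontal axis) of the 16 her and hes genes and the 3 hey genes, with the 3 arrays as open symbols, the mean as a thick tick and 1 SD to each side as a thin line. The 6 called genes lie left of 0 on every array, and the hey genes scatter around 0.

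Some members lie next to each other in the genome, by their order among protein-coding genes of the RefSeq table for GRCz12tu. Her1 and her7 are direct neighbours, as are her5 and her11, and neither pair held a called gene. Her2 and her15.2, with 1 gene between them, were both called on the opposite side. Neighbours also differed, since her8.2 (0.02 ± 0.11) adjoins the called her13, and her4.5 (-0.08 ± 0.12) is separated from the called her12 by 4 genes.

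Differences between paralogs were taken within each array for 7 chosen pairs, which are not all of the paralogs among the members. In each of the 7 the sign was the same on the 3 arrays. Besides the pairs given above, jag1a minus jag1b was -0.26, -0.33 and -0.33. Jag2a and jag2b, which are not among the 7, had no constant order. Jag2a lay above jag2b on replicate 1 (0.09 and -0.10) and below it on replicate 3 (-0.05 and 0.0078). With 3 arrays the exact sign-flip test, two-sided, cannot give a p under 0.25, which the 7 pairs reached (also 0.25 adjusted over the pairs), so this test could not place any paralog difference under 0.05.

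Of the called genes, 9 had more than 1 probe. Fitted one by one over all 43603 probes, 30 of the 82 probes were called, 24 on the opposite side and 6 on the slc2a10 side. Of all probes 11.7% were called, 5.49% on the opposite side and 6.18% on the slc2a10 side. The remaining 12 called genes, among them notch1a, her12 and neurod6b, rest on 1 probe each.

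**Figure D4:**
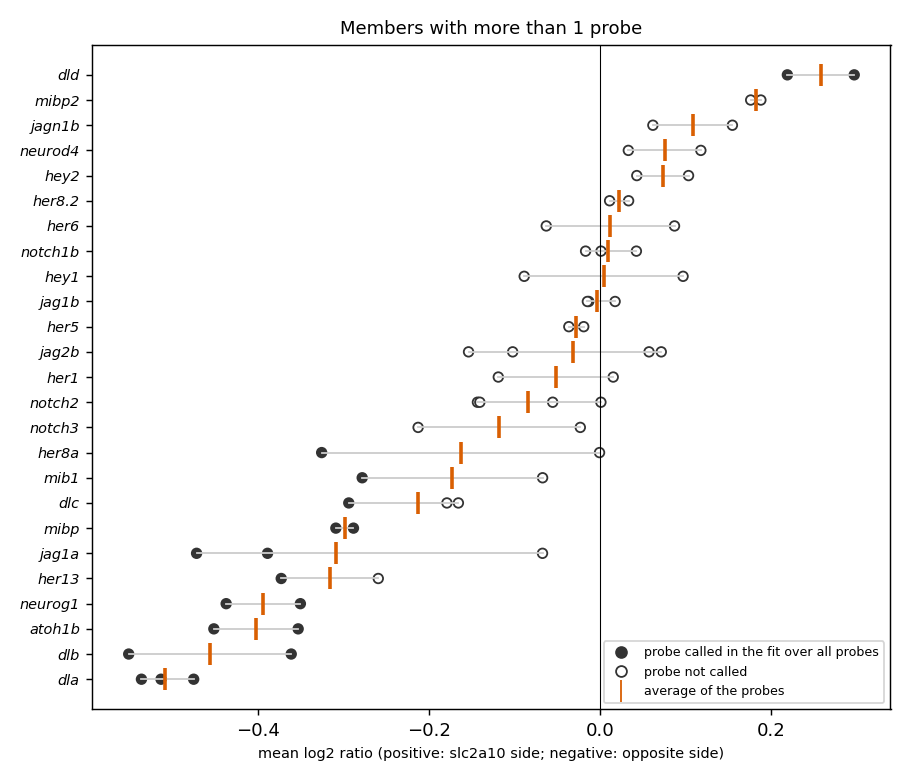
Mean log2 ratio over 3 arrays of every probe (circles, filled where called in the fit over all probes) for the 25 members with more than 1 probe, ordered by the average of the probes (orange tick). The 3 probes of dla lie together, while the probes of jag1a spread from -0.47 to -0.07.

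Further genes of the pathway were taken from lists written with earlier results of these data known, and 37 of their 55 genes were measured. Of these 6 were called on the opposite side and 0 on the slc2a10 side by limma (19 of the 37 had an unadjusted p under 0.05, beside 31.4% of all named genes), with a median of -0.10. Over all named genes the shares called were 8.16% on the opposite side and 11.1% on the slc2a10 side. With all arrays, the share of the list was therefore above the background on the opposite side and below it on the slc2a10 side. Only with both sides pooled was it close to the background of 19.3%. Of the 37 means, 26 were below 0 and 11 above. Lfng, the Fringe glycosyltransferase that alters how Notch responds to its ligands, had -0.46, -0.41 and -0.38 (mean -0.42 ± 0.04, adjusted p = 0.0013). Rbpjb, a gene of the DNA-binding partner of Notch, had -0.22, -0.31 and -0.46 (mean -0.33 ± 0.12, adjusted p = 0.0072), while rbpja had -0.10 ± 0.09 (adjusted p = 0.30). Nrarpa, a Notch target that limits the signal, had -0.36, -0.23 and -0.29 (mean -0.29 ± 0.06, adjusted p = 0.007), while nrarpb had -0.05 ± 0.04 (adjusted p = 0.62).

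The other called genes were smaller. The coactivator gene maml1 (-0.21 ± 0.05), the fucosyltransferase gene pofut1 (-0.21 ± 0.10) and the ubiquitin ligase gene neurl1b (-0.21 ± 0.03) had adjusted p of 0.028, 0.040 and 0.024. All 3 lost their call without replicate 2 (adjusted p = 0.19, 0.31 and 0.17), which left 3 of the 6. In that setting 3 of 37 were called on the opposite side and 0 on the slc2a10 side, beside 10% of all named genes on either side. With both sides pooled, the list was thus not shown to be above the background without replicate 2. The background on the opposite side alone was not counted in that setting, so that side was not compared. Maml1 was also lost without replicate 1 (adjusted p = 0.059), and pofut1 and neurl1b without replicate 3 (adjusted p = 0.12 and 0.051), where the corepressor gene ctbp1 was called on the slc2a10 side (0.38, adjusted p = 0.017). The measured genes of the enzymes that cut the receptor, furina, furinb, adam10a, adam10b, adam17a, adam17b, psen2, psenen, ncstn and aph1b, had means between -0.22 and 0.08, and none was called (adjusted p between 0.061 and 0.96).

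Of 18 measured partners and downstream factors of the proneural proteins, 5 lay on each side with a call. The shares of all named genes called were 8.16% on the opposite side and 11.1% on the slc2a10 side. An unadjusted limma p under 0.05 was found for 12 of the 18, beside 31.4% of all named genes. This list was also written with earlier results of these data known. Olig3, a gene of dorsal neural progenitors, had -0.79, -0.87 and -0.82 (mean -0.83 ± 0.04, adjusted p = 7.31e-05), and it was the farthest of the list. With it on the opposite side lay onecut1 (-0.59 ± 0.14) and insm1a (-0.49 ± 0.06), a gene of a zinc finger factor that acts as progenitors leave the cell cycle. On the slc2a10 side lay bhlhe22 (0.63 ± 0.17), the motor and sensory neuron gene isl1a (0.52 ± 0.13) and olig2 (0.42 ± 0.11). The remaining called genes, named after their values were seen, were insm1b (-0.39 ± 0.21) and ebf2 (-0.29 ± 0.13) on the opposite side and tcf4 (0.33 ± 0.07), whose protein pairs with proneural factors, and pou4f1 (0.30 ± 0.19) on the other. Insm1b and ebf2 lost their call without replicate 2 (adjusted p = 0.059 and 0.089), ebf2 also without replicate 3 (adjusted p = 0.058), and pou4f1 without replicate 1 (0.19, adjusted p = 0.053).

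Markers of cells in which these genes act lay on both sides. Their lists, too, were written with earlier results of these data known. Of all named genes 8.16% were called on the opposite side and 11.1% on the slc2a10 side. An unadjusted limma p under 0.05 was found for 31.4% of all named genes. Of 17 measured genes of cycling cells 16 were called by limma, none of them toward slc2a10 (16 had an unadjusted p under 0.05), with list medians of -0.51, -0.55 and -0.50 on replicates 1, 2 and 3. The farthest were tyms, mcm5, mcm4, cdc6, mcm7 and mcm2, with means between -0.68 and -0.57. Of 18 genes of postmitotic neurons limma called 13, none of them opposite to slc2a10 (16 had an unadjusted p under 0.05), with medians of 0.48, 0.36 and 0.26. Below 0 without a call were elavl3 (-0.14 ± 0.05), cntn2 (-0.12 ± 0.07) and inab (-0.24 ± 0.21), and inab was called there without replicate 1 (-0.34, adjusted p = 0.0065). The farthest were snap25b, gng3, stmn1b, sncb, stmn2a and vamp2, with means between 0.53 and 0.88. Progenitor and radial glia genes were split, with 7 of 21 on the slc2a10 side, led by fabp7a (0.83 ± 0.15), rx3 (0.65 ± 0.07), pax6b (0.40 ± 0.09) and sox1a (0.37 ± 0.04), and 5 opposite, led by slc1a3a (-0.73 ± 0.08) and glula (-0.50 ± 0.02). The rest of the 5, named after their values were seen, were sox19a (-0.27 ± 0.14), sox3 (-0.20 ± 0.05) and sox2 (-0.20 ± 0.06). The rest of the 7, named likewise, were rx2 (0.33 ± 0.11), gfap (0.28 ± 0.12) and pax6a (0.19 ± 0.07). Without replicate 2, the opposite count was 2, with sox19a, sox3 and sox2 lost (adjusted p = 0.17, 0.21 and 0.19). Sox2 was also lost without replicate 1 or replicate 3 (adjusted p = 0.081 and 0.053), and sox3 without replicate 1 (adjusted p = 0.058). Pax6a lost its call without replicate 1 or replicate 2 (adjusted p = 0.0985 and 0.25). The defining markers of the listed cell types have no level here, and the part of these cells in the values of the Notch and proneural genes was not tested.

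Markers of other places where Notch or proneural genes act are given beside the 19.3% of all named genes called on either side. Of 8 presomitic mesoderm genes 0 were called by limma, and 0 had an unadjusted p under 0.05, with means between -0.12 and 0.03. For these genes too, expression at 48 hours could not be checked. Of 16 endothelial genes limma called 3, sox18 (-0.31 ± 0.25), stab2 (-0.22 ± 0.01) and ephb4a (-0.22 ± 0.07), and each lost its call without replicate 2 (adjusted p = 0.060, 0.12 and 0.23). Stab2 and ephb4a were also lost without replicate 3 (adjusted p = 0.057 and 0.070), and sox18 without replicate 1 (-0.17, adjusted p = 0.085). Of 11 hair cell genes 3 were called, pou4f3 (0.33 ± 0.15), s100s (0.26 ± 0.16) and s100t (0.23 ± 0.10), on the other side from atoh1b. The list median was 0.05, and 4 of the 11 means were below 0, on the side of atoh1b, without a call. These were pcdh15a, cdh23, tmc2a and myo7aa, between -0.14 and -0.02. The calls of s100s and s100t were each lost without replicate 1 (adjusted p = 0.070 and 0.063), that of s100s also without replicate 3 (adjusted p = 0.12) and that of s100t without replicate 2 (adjusted p = 0.17). Of 9 endocrine pancreas genes, isl1a and pax6b, which are also neural, were called along with sst1.1 (0.28 ± 0.05) and gcga (0.20 ± 0.07), and sst2 lay opposite (-0.48 ± 0.17). Gcga lost its call without replicate 1 or replicate 2 (adjusted p = 0.086 and 0.19).

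**Figure D5:**
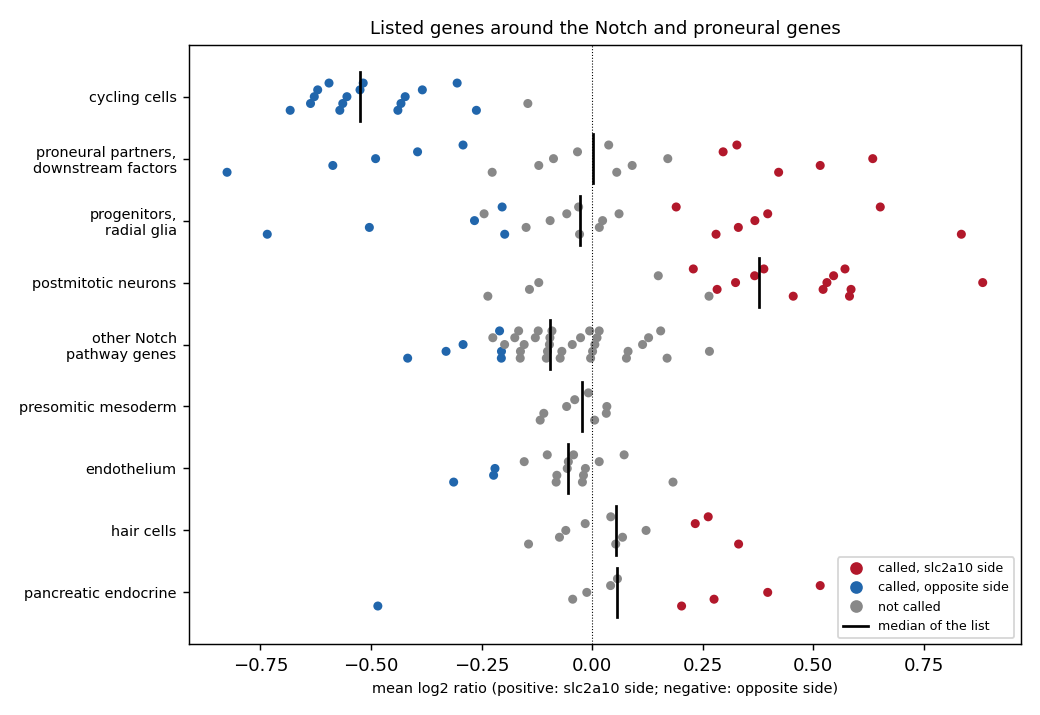
Mean log2 ratio over 3 arrays of every measured gene of the lists (points, coloured by limma call), with the median of each list as a black line. Cycling cell genes lie left of 0 with a median of -0.52, postmitotic neuron genes mostly right of it with a median of 0.38, and the other Notch pathway genes in between.

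The 4 genes that match only by prefix are not part of the pathway. Jagn1a, a jagunal gene of the endoplasmic reticulum, had 0.83, 0.49 and 0.33 (mean 0.55 ± 0.26, adjusted p = 0.0044), and jagn1b had 0.11 ± 0.14 (adjusted p = 0.31). Mibp, a muscle gene of an integrin-binding protein, had -0.28, -0.26 and -0.35 (mean -0.30 ± 0.05, adjusted p = 0.0058). Mibp2 had 0.28, 0.13 and 0.13 (mean 0.18 ± 0.09, adjusted p = 0.059), with both probes above 0.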

How the data were processed

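RNA of 3 knockdown replicates was measured against 1 control pool on two-colour arrays. The deposited log2 ratios were made by the authors. Log base, background correction, normalization and direction are not given in the sources at hand, and the values are read as log2 because the largest, 4.85, would exceed a scanner's range as a log10 ratio. If the logs were natural, every log2 size would be understated. Per the submitters' processing notes, Partek was used, in a role they do not state. The deposited columns had medians of -0.0016, -0.0076 and -0.0045. Signal above background is unknown for every probe, and precision is limited by having 3 arrays.

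After leaving out 45 control spots, symbols were updated through Entrez IDs (23534 probes) or accessions (42) with the GRCz12tu RefSeq table and kept for 141, and 19886 probes are unnamed here. Where a gene had several probes, their mean per array was used. The mean of the 3 arrays was tested against 0 with limma 3.58.1 in R 4.3.3 (lmFit, eBayes, Benjamini-Hochberg over 15548 genes). A check on simulated ratios used independently drawn arrays and changes nearly as large as or larger than those of most called members. It therefore does not cover smaller differences, the shared control pool or the dyes. Nothing says whether the replicates came from separate clutches, so p-values measure the spread between these samples. Called members are named with their arrays, and the others by role, except that 2 members are counted but not reported here singly. In the lists the called genes are named, up to 6 by size, and further ones are marked as named after their values were seen. Members and lists were chosen with earlier results of these data known.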

Additional observations from a re-analysis of the deposited data

How the results depend on the processing

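Without the turn of replicate 2, limma called 0 members on either side (0 at an unadjusted p under 0.05) and 0% of all named genes, and 1 called member changed sign, to a mean of 0.04. Every call thus rests on that turn. At an adjusted p under 0.01, 10 members were called on the opposite side and 4 on the slc2a10 side, with 9.88% of all named genes. Leaving out 1 replicate gave 16 to 21 called members, with 4 or 5 on the slc2a10 side and 11 to 16 on the opposite side. The share called over all named genes was 20.7% without replicate 1, 10% without replicate 2 and 16.3% without replicate 3, against 19.3% with all arrays. Without replicate 2, which alone has slc2a10 MO in Cy5, 5 of the 21 calls were lost, and the mean of 1 called member moved 1.54 times. Array weights gave 25 members, but also called 33.5% of all named genes. Over the other settings (leaving out a replicate, robust empirical Bayes, a dye term, array weights, a common spread, the median of probes and the platform's symbols), 14 of the 21 called members were called each time and 7 were lost at least once. The causes were not tested. Each value already compares a knockdown replicate with the control pool on the same array, and the mean of these ratios was tested against 0. The control pool is 1 sample without replicate numbers, so no further pairing of samples was possible.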
